A study of Mus musculus with 10 samples.

Results

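The genes of ileal bile acid uptake and of the hormone that reports it were described in RNA-seq libraries of proximal small intestine. They were 7 named genes, *Slc10a2*, *Fabp6*, *Slc51a*, *Slc51b*, *Nr1h4*, *Fgf15* and *Nr0b2*, out of 35275 Ensembl gene IDs, and all 7 were matched by symbol and had enough counts for the model. They were chosen by their CPM in KO against WT libraries in earlier results of the same counts. Their KO against WT differences are therefore given as a description, with no p-value for any single gene. The study examined how loss of the zinc transporter Zip14 (*Slc39a14*) alters the intestine. It had 5 WT and 5 KO libraries, and the study's methods state that libraries came from individual mice.

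The labels give only the genotype, WT or KO, the tissue, proximal intestine, and an age of 8 to 10 weeks. The study's methods describe mice without *Zip14* in the whole body, *Zip14*-/-, and WT controls of that strain, both bred from heterozygous parents, while the title of the series names a deletion in enterocytes. The groups are therefore called KO and WT here. Neither description gives the sex or age of a single mouse. The deletion cannot be checked exon by exon in counts per gene, and *Slc39a14* had 264, 356, 267, 191 and 222 CPM in WT replicates 1 to 5 and 160, 85.5, 93.6, 78.3 and 93.6 CPM in KO replicates 1 to 5. All KO libraries were below all WT libraries, with reads left in each. CPM is a gene's count scaled to a common library total, with TMM factors that adjust for composition. The libraries held between 16729787 and 20819678 counts, so that 3 counts, the most that a count of 0 may stand for at 95% confidence, correspond to 0.143 to 0.191 CPM.

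Bile acids are made in the liver, help to absorb fat, and are mostly taken back in the last part of the small intestine, the ileum. There, SLC10A2 (ASBT) carries them into the enterocyte, FABP6 binds them inside the cell, and the SLC51A and SLC51B subunits (OSTα and OSTβ) export them towards the blood. Bile acids also activate the nuclear receptor FXR, encoded by *Nr1h4*, which with RXR induces *Fgf15*, a hormone that lowers bile acid synthesis in the liver, and *Nr0b2* (SHP), a repressor.

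The labelled tissue was checked against its markers. The summed level of 10 markers of the proximal intestine was 9375 to 17767 CPM in WT libraries and 313 to 1693 CPM in KO libraries. Of the 9 that could be tested, 5 fell in KO and 1 rose, with a median log2 fold change of -2.90 against 0.03 over all 15610 genes tested. *Fabp1*, a fatty acid binding protein of the proximal intestine, had a mean of 2196 CPM in WT and 50.5 CPM in KO libraries. *Apoa4*, an apolipoprotein, had 6087 and 194 CPM. *Lct*, the lactase gene, did not overlap between the groups, at 3359 to 3779 CPM in WT and 0.314 to 701 CPM in KO, yet had an adjusted p of 0.0632 by edgeR's quasi-likelihood test, and 0.0266 without KO replicate 1, 0.0158 by DESeq2 and 0.0349 with epithelial scaling. The summed level of 5 other markers of the ileum was 997 to 3200 CPM in WT and 3614 to 6154 CPM in KO libraries. The largest share of the KO sums was *Naaladl1*, a peptidase gene, with a mean of 1076 CPM in WT and 4112 CPM in KO, and without it, a choice made after the values were seen, the sums overlapped at 476 to 1348 CPM in WT and 610 to 1319 CPM in KO. Of the 5, *Naaladl1* and *Pyy*, a gut hormone gene, rose, while *Cubn* (649 and 616 CPM) and *Amn* (134 and 146 CPM), the subunits of the vitamin B12 receptor, and *Nts* did not pass the test. *Pyy* and *Nts* were named after their values were seen. The KO libraries were thus labelled as proximal intestine and had low levels of most proximal markers. Where along the intestine each section was cut cannot be told apart from genotype with these labels.

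Sequence before the gene is shown for *Fabp6*, which had the highest KO over WT ratio of the 7. RefSeq promoter windows of GRCm38.p6 reach from 250 bases before a start to 50 after it, and 6 of the 7 genes matched one, *Fgf15* being the exception. The stretch is printed 5′ to 3′ on the minus strand, on which the gene lies, and ends before its first base in both RefSeq and GENCODE. It is chr11:43601563-43601812, and its capitals mark matches to IR-1, an inverted repeat of the 6-letter nuclear receptor site that FXR and RXR can bind.
Fabp6: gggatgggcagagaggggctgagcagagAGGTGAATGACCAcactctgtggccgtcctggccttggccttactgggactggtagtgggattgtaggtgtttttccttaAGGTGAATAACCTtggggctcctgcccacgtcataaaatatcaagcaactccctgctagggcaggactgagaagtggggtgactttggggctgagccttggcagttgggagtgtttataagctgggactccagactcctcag

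The motifs and their mismatch limits were chosen after the promoter sequences had been read, with the repeats of *Fabp6* already noticed, so that a match supports nothing about these genes. Both strands were searched. With the letters AGGTCANTGACCT and at most 2 mismatches in 12 letters, IR-1 matched 1 of the 6 windows, that of *Fabp6*, at -222 to -210 and again at -142 to -130 from the RefSeq start, and 1.14% of all 32851 windows. With 3 mismatches, *Slc51a* (-79 to -67) and *Slc51b* (-187 to -175) matched too, and 11.4% of all windows did. The single arm of that repeat, AGGTCA, was found exactly in *Slc51a*, *Slc51b* and *Nr1h4* and in 16.3% of all windows. AGATAA, a form of the GATA motif, was found in *Nr1h4* and 11.2%. Other forms of the GATA motif were not searched. The *Slc10a2* and *Nr0b2* windows matched none of the letters searched within the limits, which says nothing about those other forms. A match is a run of letters and not a measured binding site.

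**Figure D1:**
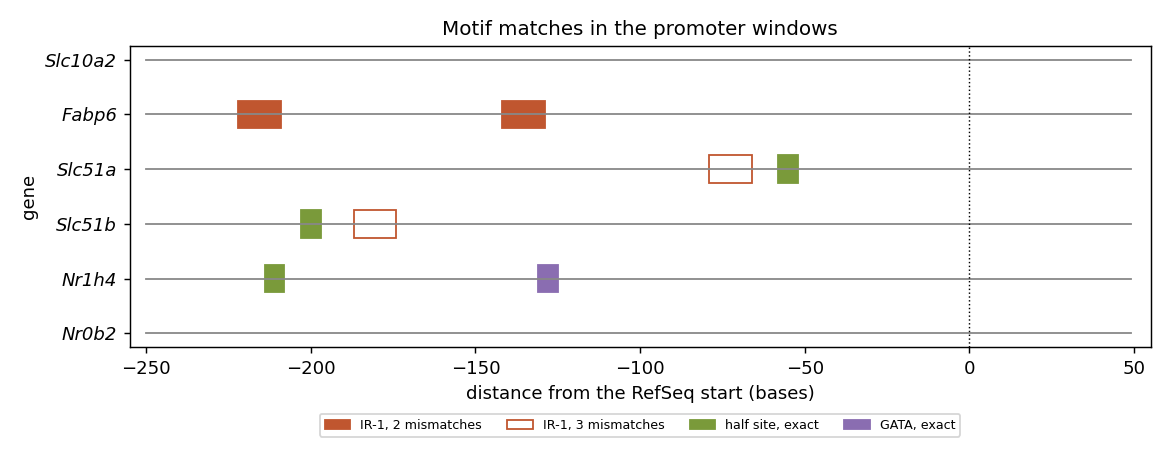
Positions of motif matches in the 6 promoter windows, with distance from the RefSeq start in bases on the horizontal axis and 1 line per gene. Filled red boxes (IR-1, 2 mismatches) appear on the *Fabp6* line only, and open red boxes are IR-1 with 3 mismatches. Green boxes are the single arm and the purple box is AGATAA, the only form of the GATA motif searched. *Slc10a2* and *Nr0b2* have no box.

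*Slc10a2* (ENSMUSG00000023073), the sodium-dependent carrier that takes bile acids up from the gut lumen, is a minus-strand gene at chr8:5083219-5105351 (GRCm38, GENCODE M21) with 6 blocks of exons. In WT replicates 1 to 5 it had 0.156, 0.701, 0.583, 0.329 and 0.672 CPM, from 3, 11, 10, 6 and 12 counts. In KO replicates 1 to 5 it had 90.2, 211, 244, 97.4 and 202 CPM. Every KO library was far above every WT library, and within KO replicates 1 and 4 were low and the other three were high. The means were 0.488 ± 0.236 CPM in WT and 168.9 ± 70.3 CPM in KO (SD, n = 5 each), and the log2 fold change of the edgeR model was 8.44 (standard error 0.45). The ratio of the means was 346. The exact Poisson interval on the 42 WT counts, which like every such interval and floor here covers counting error only, puts that ratio between 263 and 492.

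*Fabp6* (ENSMUSG00000020405), the bile acid binding protein of the ileal cytosol, is a minus-strand gene at chr11:43596049-43601540 with 4 blocks of exons. WT replicates 1 to 5 had 13, 1, 14, 11 and 31 counts, which is 0.674, 0.0637, 0.816, 0.604 and 1.74 CPM. KO replicates 1 to 5 had 3292, 2299, 5181, 9038 and 7712 CPM. The gene went from near the floor of the WT libraries to one of the most abundant in KO, where ranked by mean CPM it was number 6 of all gene IDs, after 14883 in WT. It alone held 0.322, 0.247, 0.562, 0.979 and 0.774% of the counts of KO replicates 1 to 5. The means were 0.779 ± 0.606 CPM in WT and 5504 ± 2856 CPM in KO (SD, n = 5 each), and the log2 fold change was 12.76 (standard error 0.77). The ratio of the means was 7070, between 5491 and 8899 by the exact Poisson interval on the 70 WT counts. Within KO, replicates 1 and 2 were low and replicates 4 and 5 high, so that the carrier and the binding protein did not share an order. *Slc10a2* was high and *Fabp6* low in KO replicate 2, and the reverse held in KO replicate 4. The ratio of their levels per kb of exon was 94.3 in KO replicate 2 and 804 in KO replicate 4, with the others between 184 and 331.

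**Figure D2:**
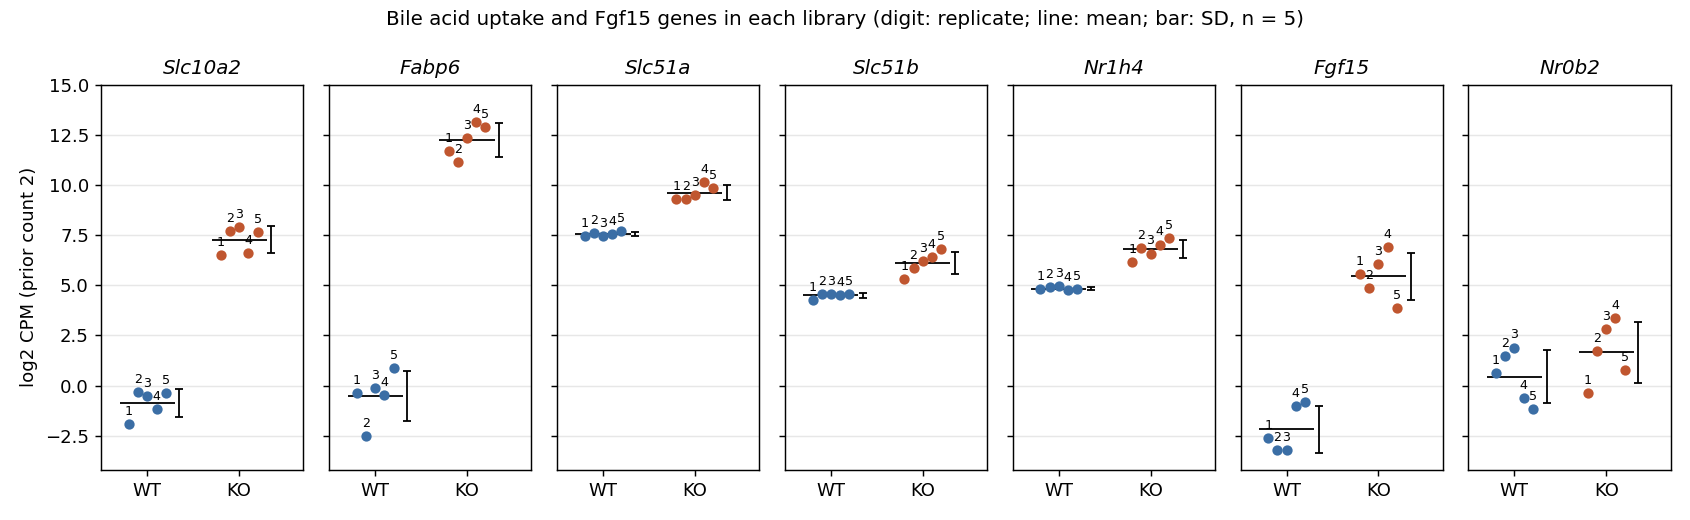
The 7 genes in each library, as log2 CPM with a prior count of 2 on the vertical axis, with digits for the replicate number, a line at the group mean and a bar for the SD (n = 5). The 5 KO libraries lie above the 5 WT libraries for every gene but *Nr0b2*, where the groups overlap.

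*Fabp6* was also set beside its relatives, a comparison chosen after the values were seen. *Fabp1* and *Fabp2* encode the other fatty acid binding proteins of the enterocyte. Of the summed level per kb of the 3 genes, *Fabp6* made up 0.00148 to 0.0431% in WT libraries and 46.5, 65.6, 80.2, 84.0 and 85.0% in KO replicates 1 to 5. *Fabp1* made up 34.3 to 55.1% in WT and 0.0385 to 3.09% in KO libraries. *Fabp2*, at 54.2 ± 9.97% in WT and 26.8 ± 15.9% in KO (SD, n = 5 each), was present in every library, and its own CPM did not pass the test (log2 fold change -0.24, adjusted p = 0.586 by edgeR). The main FABP transcript was thus *Fabp1* or *Fabp2* in each WT library. In KO it was *Fabp6* in replicates 2 to 5 and *Fabp2*, at 52.8%, in replicate 1.

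*Slc51a* and *Slc51b*, whose products form a single exporter on the basolateral side of the enterocyte, were already well above the floor in WT. *Slc51a* (ENSMUSG00000035699, chr16:32474504-32487879, minus strand, 9 blocks of exons) had 178, 198, 176, 187 and 210 CPM in WT replicates 1 to 5. In KO replicates 1 to 5 it had 627, 636, 729, 1134 and 940.4 CPM. The groups did not overlap, and the coefficient of variation was 7.48% in WT and 27.0% in KO. The means were 189.9 ± 14.2 CPM and 813 ± 219 CPM (SD, n = 5 each), with a log2 fold change of 2.10 (standard error 0.18).

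*Slc51b* (ENSMUSG00000053862, chr9:65412714-65422955, minus strand, 4 blocks of exons) had 19.4, 23.7, 23.9, 22.9 and 23.8 CPM in WT replicates 1 to 5 and 39.6, 58.2, 73.7, 84.5 and 112 CPM in KO replicates 1 to 5. The groups did not overlap, WT replicate 1 was the low library of a narrow group, and KO replicate 1 was the closest of its group to WT. The means were 22.8 ± 1.90 CPM and 73.6 ± 27.3 CPM (SD, n = 5 each), with a log2 fold change of 1.69 (standard error 0.23).

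Per kb of exon, *Slc51a* exceeded *Slc51b* in all 10 libraries. The ratio was 2.03, 1.85, 1.63, 1.81 and 1.95 in WT replicates 1 to 5 and 3.51, 2.42, 2.19, 2.98 and 1.86 in KO replicates 1 to 5. The KO ratio was higher in 4 libraries and within the WT range in replicate 5. Each subunit gene shares exon sequence with a gene on the other strand, *Slc51a* with *Pcyt1a* and *Slc51b* with *Rasl12*, and whether strand was used in counting is not given in the sources used here. These genes were looked at after the subunit values were seen. *Pcyt1a*, which encodes an enzyme of phosphatidylcholine synthesis, went the other way from *Slc51a*, with 279 ± 51.1 CPM in WT and 123 ± 68.8 CPM in KO (SD, n = 5 each, log2 fold change -1.18, adjusted p = 0.0134 by edgeR). *Rasl12* rose like *Slc51b*, with 3.44 ± 0.978 CPM in WT and 13.3 ± 6.72 CPM in KO (SD, n = 5 each, log2 fold change 1.95, adjusted p = 0.00367 by edgeR), and stayed below *Slc51b* in mean CPM in both groups. How many reads the overlapping genes share was not tested.

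*Nr1h4* (ENSMUSG00000047638), the gene of the bile acid receptor FXR, is a minus-strand gene at chr10:89454234-89533585 with 11 blocks of exons. It had 27.6, 29.7, 30.6, 26.7 and 28.0 CPM in WT replicates 1 to 5, a coefficient of variation of 5.58%, and 71.9, 114, 96.0, 131 and 164 CPM in KO replicates 1 to 5, a coefficient of variation of 30.2%. The groups did not overlap, and KO replicate 1 was again the lowest of its group. The means were 28.5 ± 1.59 CPM and 115 ± 34.9 CPM (SD, n = 5 each), with a log2 fold change of 2.02 (standard error 0.19).

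*Fgf15* (ENSMUSG00000031073), the hormone gene that FXR induces in ileal enterocytes, is a plus-strand gene at chr7:144896531-144900953 with 2 blocks of exons, and shares exon sequence with *Gm26793* and *Gm39119* on the other strand. It had 1, 0, 0, 7 and 8 counts in WT replicates 1 to 5, at most 0.448 CPM. In KO replicates 1 to 5 it had 852, 556, 1238, 2562 and 274 counts, or 48.0, 29.1, 66.7, 122 and 14.4 CPM. Every KO library was above every WT library, but KO replicate 4 was 8.49 times KO replicate 5, the widest spread within KO of the 6 genes whose groups did not overlap. The means were 0.177 ± 0.221 CPM in WT and 56.0 ± 41.8 CPM in KO (SD, n = 5 each), the log2 fold change was 8.22 (standard error 0.82), and the ratio of the means was 317, between 190.1 and 540 by the exact Poisson interval on the 16 WT counts. *Fgf15* did not follow its receptor from library to library: KO replicate 5 had the highest *Nr1h4* and the lowest *Fgf15*. Per kb of exon, the ratio of *Fgf15* to *Nr1h4* was 0.0659 in that library and 0.191 to 0.700 in the other KO libraries.

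*Nr0b2* (ENSMUSG00000037583), the repressor SHP, is a plus-strand gene at chr4:133553376-133556536 with 2 blocks of exons. It had 1.45, 2.68, 3.61, 0.549 and 0.336 CPM in WT replicates 1 to 5, from 28, 42, 62, 10 and 6 counts. In KO replicates 1 to 5 it had 0.675, 3.19, 6.84, 10.4 and 1.57 CPM. The groups overlapped, only KO replicates 3 and 4 were above every WT library, and WT replicates 4 and 5 were below every KO library. The means were 1.73 ± 1.40 CPM and 4.53 ± 4.03 CPM (SD, n = 5 each), with a log2 fold change of 1.40 (standard error 0.75) that was 0.84 without KO replicate 4. This gene is the member of the 7 with the weakest difference.

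Over the 7 genes the median log2 fold change was 2.10, and 6 of them had an adjusted p under 0.05 in the edgeR test across 15610 genes, all higher in KO. The share of all tested genes past that threshold was 29.9%, of which 16.0% of the tested genes were higher and 13.9% lower. The KO and WT libraries did not overlap for the same 6 genes, against 21.1% of all genes tested. The 7 genes were named with these differences in view, so nothing is read from their counts. In libraries of whole tissue, fewer cells of a type and less RNA per cell cannot be told apart.

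Levels were compared between the genes per kb of exon. In WT libraries *Slc51a* was highest at 59.4 ± 4.44 CPM per kb, followed by *Slc51b* at 32.1 ± 2.67 and *Nr1h4* at 12.4 ± 0.691 CPM per kb (SD, n = 5). These 3 did not overlap. *Fabp6* (1.63 ± 1.27) and *Nr0b2* (1.52 ± 1.24) came next and overlapped each other, and *Slc10a2* (0.118 ± 0.0570) and *Fgf15* (0.0578 ± 0.0721 CPM per kb) came last and overlapped too. In WT the exporter and receptor transcripts were thus present while those of the carrier, the binding protein and the hormone were near the floor. In KO libraries *Fabp6* led with 11492 ± 5963 CPM per kb (SD, n = 5), followed without overlap by *Slc51a* at 254 ± 68.6 and, again without overlap, by *Slc51b* at 104 ± 38.6 CPM per kb. From there each neighbour overlapped the next, with *Nr1h4* at 50.2 ± 15.2, *Slc10a2* at 40.7 ± 16.9, *Fgf15* at 18.3 ± 13.7 and *Nr0b2* at 0.597 to 9.16 CPM per kb in single libraries. *Fabp6* was number 2 of all gene IDs per kb in KO, and number 10848 in WT.

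The values were also set beside the regional markers within each group, as a description. In WT replicates 4 and 5 the summed proximal markers were 9375 and 10563 CPM, below the 14046 to 17767 CPM of the other WT libraries, and the other ileal markers were 2748 and 3200 CPM, above their 997 to 1387 CPM, and without *Naaladl1* 998 and 1348 CPM, above 476 to 656 CPM. *Fgf15* had 7 and 8 counts in these libraries and at most 1 in the others, and *Nr0b2* was lowest there. The other uptake genes did not split the WT libraries this way. In WT replicate 4, *Fabp6* and *Slc10a2* had 0.604 and 0.329 CPM, below the 0.816 and 0.583 CPM of WT replicate 3. Among KO libraries the summed proximal markers were 1693, 1155, 521, 422 and 313 CPM in replicates 1 to 5. *Slc51b* and the *Fabp6* share among FABP transcripts had exactly the opposite order, although *Fabp1* enters both that share and the proximal sum. The CPM of *Fabp6* and of the other five genes did not. The part of the regional difference in any of these values was not tested.

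**Figure D3:**
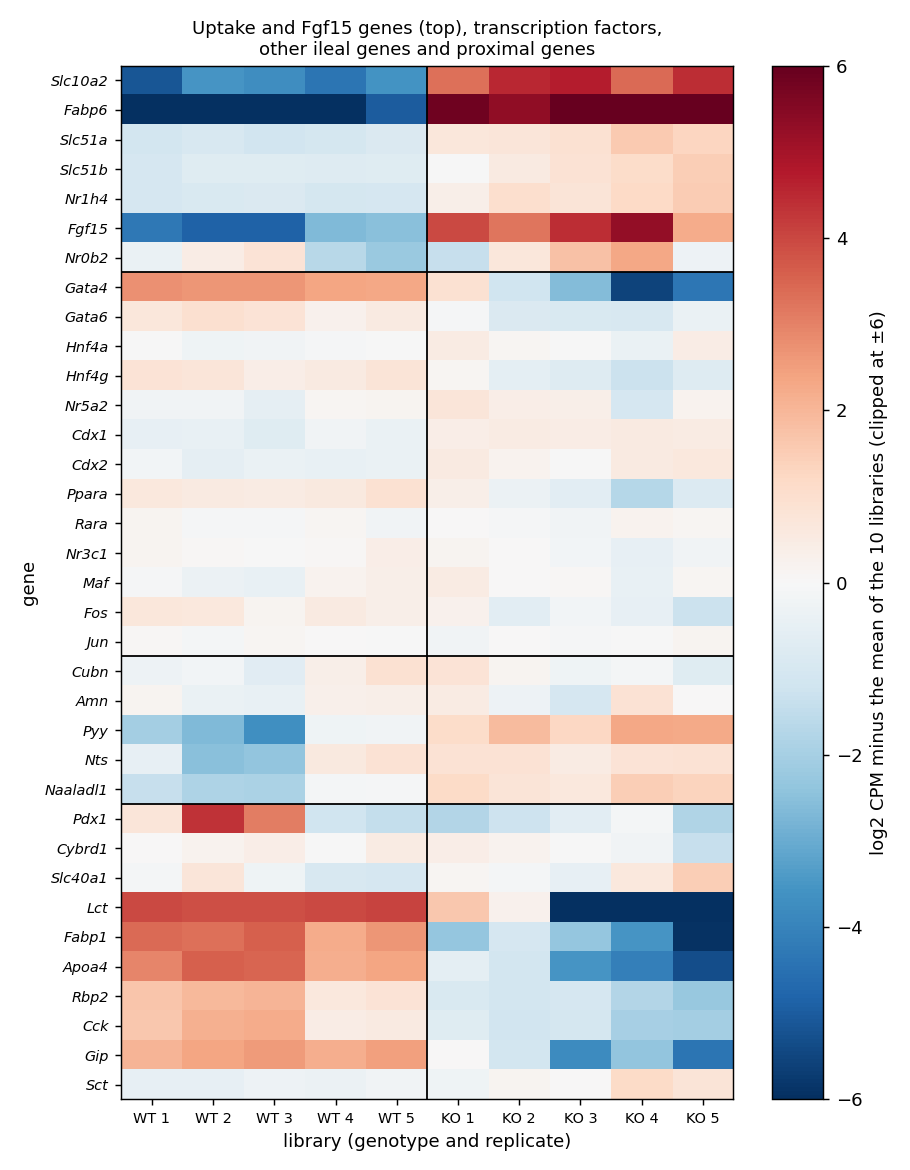
Heat map of log2 CPM (prior count 2) minus the mean of the 10 libraries, clipped at ±6, with libraries in columns and the uptake and *Fgf15* genes, transcription factors, other ileal markers and proximal markers in rows. Apart from *Nr0b2*, and from *Slc51b* in KO replicate 1, which is close to white, the uptake genes are blue in WT and red in KO, while *Gata4* is red in WT and in KO replicate 1 and blue in the other KO libraries.

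Markers of other cell types also differed between the groups. All 8 smooth muscle markers rose in KO, among them *Myh11*, *Acta2* and *Des*, with a summed level of 1128 to 2026 CPM in WT and 3047 to 9382 CPM in KO, highest in KO replicate 4. The summed level of 6 epithelial markers overlapped, at 10766 to 12403 CPM in WT and 11671 to 17805 CPM in KO. Of the 6, 3 rose, among them *Krt8*, and *Vil1* and *Krt20* did not pass the test (adjusted p = 0.105 and 0.193 by edgeR), although *Vil1* had a log2 fold change of -0.66 and an adjusted p of 0.0253 without KO replicate 1. With the 6 markers as the scale, *Vil1* and *Krt20* were called lower (-0.82 and -0.69, adjusted p = 0.0035 and 0.0048 by edgeR). That scale is the summed counts of the same 6 genes, of which 3 rose, so a lower call of the others is partly built into it. Scaled to the epithelial markers in place of TMM, the log2 fold change was 12.52 for *Fabp6*, 8.14 for *Slc10a2*, 8.08 for *Fgf15*, 1.84 for *Slc51a*, 1.72 for *Nr1h4* and 1.40 for *Slc51b*. None of the 4 lymphoid markers passed the test, at 71.1 to 192 CPM in sum. Liver markers were at 0.311 to 1.62 CPM in sum in all libraries. *Car1*, a carbonic anhydrase of the colon, was at 0 in all WT libraries and had 1167 CPM in KO replicate 2. It had 0.539 CPM in KO replicate 3, 11.3 CPM in KO replicate 4 and 0 in KO replicates 1 and 5. None of the 7 genes was the highest of its group in KO replicate 2, while *Fabp6*, *Slc51a*, *Fgf15* and *Nr0b2* were highest in KO replicate 4. Whether colon tissue bears on these values was not tested.

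The other genes of the pathway were taken from 6 lists of 53 genes, which were written down with earlier results known but not picked for how their members moved. Of the 53, 42 could be tested, 9 rose in KO, 15 fell and 18 did not pass the test, with a median log2 fold change of -0.01. In percent of the 42 that is 21.4% higher and 35.7% lower, beside 16.0% and 13.9% of all genes tested.

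Among 8 other bile acid transporters, 2 of the 5 tested fell and none rose (median log2 fold change -0.51). *Abcc2*, an apical efflux pump, fell from 930 ± 228 to 153 ± 108 CPM (SD, n = 5 each, log2 fold change -2.60, adjusted p = 0.00276 by edgeR), without overlap. *Slco2b1*, an organic anion carrier, fell by 0.51 on the log2 scale (adjusted p = 0.0221 by edgeR). *Abcc3*, a basolateral pump, had a log2 fold change of -0.75 and did not pass the test (adjusted p = 0.0932 by edgeR), but was called lower without WT replicate 4 (-0.93, adjusted p = 0.0415) and with epithelial scaling (-1.09, adjusted p = 0.0171). *Slco1a5* had 0 counts in all libraries, and *Abcb11* and *Slc10a1*, the exporter and the carrier of the liver, had 3 and 75 counts over the WT and 15 and 47 over the KO libraries, in that order.

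Among 8 other receptors and RXR partners, 1 rose, 3 fell and 2 did not pass the test. *Nr1i3* (CAR), a xenobiotic receptor, fell from 55.4 ± 12.8 to 3.44 ± 2.95 CPM (SD, n = 5 each, log2 fold change -4.01, adjusted p = 4.2e-04 by edgeR). *Vdr*, the vitamin D receptor, which also binds lithocholic acid, and *Nr1i2* (PXR) fell by 0.46 and 0.43 on the log2 scale (adjusted p = 0.0194 and 0.0195 by edgeR), the latter call being lost when only library size was used for scaling (adjusted p = 0.0512). *S1pr2*, a receptor for sphingosine phosphate and conjugated bile acids, rose by 0.84 (adjusted p = 0.0074 by edgeR), and its adjusted p was 0.0960 with epithelial scaling. The RXR genes *Rxra* and *Rxrb*, whose products pair with FXR, had log2 fold changes of -0.07 and 0.07 (adjusted p = 0.556 and 0.453 by edgeR). With epithelial scaling *Rxra* was called lower (-0.36, adjusted p = 0.0315) and *Rxrb* was at -0.21, and with library size only *Rxra* was at 0.05. *Gpbar1* (TGR5), the membrane receptor for bile acids, was too low for the test, with 18 counts over WT and 113 over KO libraries.

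Of the 3 genes of FGF15 signalling, 2 rose. *Fgfr4*, the receptor, had 4.57 ± 1.09 CPM in WT and 10.9 ± 1.31 CPM in KO (SD, n = 5 each, log2 fold change 1.25, adjusted p = 8.4e-04 by edgeR). *Malrd1*, a gut protein known to affect FGF15 output, rose by 0.77 (adjusted p = 0.00769 by edgeR). *Klb*, the co-receptor, had 0.985 ± 0.406 and 1.63 ± 0.904 CPM and did not pass the test (adjusted p = 0.215 by edgeR).

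Of 14 genes of bile acid synthesis, 8 could be tested, 1 rose and 4 fell. *Cyp7a1*, the rate-limiting enzyme of the liver, had 0 counts in all 10 libraries, and *Cyp8b1* had 0 counts in WT and 8 in KO libraries. *Cyp27a1*, the first enzyme of the acidic pathway, fell from 56.5 to 80.7 CPM in WT to 22.1 to 43.3 CPM in KO libraries (log2 fold change -1.19, adjusted p = 0.00319 by edgeR). The peroxisomal genes *Scp2*, *Acox2* and *Amacr*, which shorten and convert the side chain, fell by 0.98, 1.51 and 0.60 on the log2 scale, and the groups overlapped for *Acox2*. *Baat*, which joins bile acids to taurine or glycine, rose from 2.03 ± 0.622 to 6.19 ± 1.08 CPM (SD, n = 5 each, log2 fold change 1.60, adjusted p = 0.00102 by edgeR). *Cyp39a1* did not pass the test (adjusted p = 0.0618 by edgeR), but was called higher without KO replicate 2 (log2 fold change 0.51, adjusted p = 0.0357) and when only library size was used for scaling (0.56, adjusted p = 0.0265).

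Of 6 other genes listed as responsive to FXR in the intestine, 3 rose and 1 fell. *Nos2*, the inducible nitric oxide synthase, had 1.57 to 16.0 CPM in WT and 19.7 to 362 CPM in KO libraries (log2 fold change 4.55, adjusted p = 0.00375 by edgeR). *Car12*, a carbonic anhydrase, rose by 1.96 (adjusted p = 1.7e-04 by edgeR). *Il18*, a cytokine listed with them, went the other way, from 54.3 to 96.5 CPM in WT to 12.1 to 19.3 CPM in KO libraries (log2 fold change -2.35, adjusted p = 6.7e-05 by edgeR). *Ang4*, an antimicrobial of Paneth cells, ranged from 88.8 to 2843 CPM in KO and did not pass the test (log2 fold change 2.18, adjusted p = 0.0778 by edgeR), but was called higher by DESeq2 (2.17, adjusted p = 0.0399) and by edgeR without KO replicate 5 (2.48, adjusted p = 0.0366), and had a log2 fold change of 1.27 without KO replicate 3. *Sptlc2*, a subunit of the first enzyme of sphingolipid synthesis, rose by 0.48 (adjusted p = 0.0258 by edgeR). Its call was lost without WT replicates 3, 4 or 5 or KO replicate 2, with adjusted p between 0.0527 and 0.0681.

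Transcription factors that act on the ileal or proximal programme made up the last list, of 14 genes, of which 2 rose, 5 fell and 7 did not pass the test. *Gata4*, which holds down ileal genes including *Slc10a2* and *Fabp6* in the proximal intestine, had 160 to 216 CPM in WT libraries and 59.3, 13.8, 5.22, 0.571 and 1.47 CPM in KO replicates 1 to 5 (log2 fold change -3.56, adjusted p = 0.0177 by edgeR). The groups did not overlap, and KO replicate 1 kept the most. In that library *Slc10a2* was the lowest of its group, while *Fabp6* was lowest in KO replicate 2. In KO replicate 4, where *Gata4* was lowest, *Slc10a2* was also low (97.4 CPM, against 90.2 CPM in KO replicate 1) and *Fabp6* was highest. Whether *Gata4* bears on either gene was not tested. *Gata6*, its relative, fell by 1.27 on the log2 scale (adjusted p = 0.00146 by edgeR) and *Hnf4g* by 1.25 (adjusted p = 0.00318). *Hnf4a*, an enterocyte factor, had a log2 fold change of 0.27, or -0.05 with epithelial scaling, and did not pass the test (adjusted p = 0.234 by edgeR). *Cdx1* and *Cdx2*, caudal-type factors of the distal gut, rose by 0.92 and 0.78 (adjusted p = 2.4e-04 and 0.00273 by edgeR). *Ppara* fell by 1.12 and *Fos* by 0.85 (adjusted p = 0.0165 and 0.0209 by edgeR), the latter with an adjusted p of 0.0508 without WT replicate 1. *Nr5a2* (LRH-1), a partner of SHP, did not pass the test (log2 fold change 0.35, adjusted p = 0.322 by edgeR), but was called higher without KO replicate 4 (0.55, adjusted p = 0.0277).

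**Figure D4:**
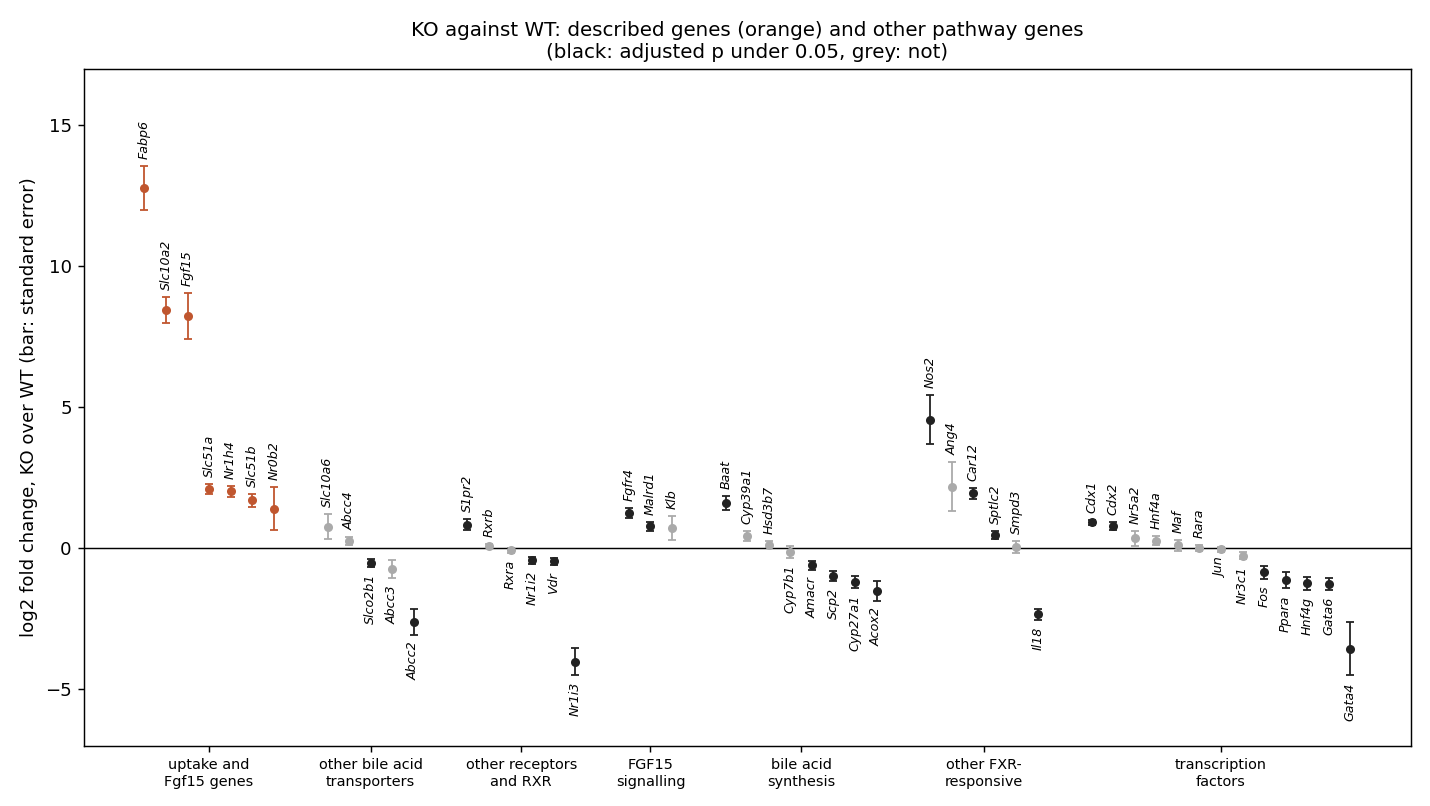
The log2 fold change of KO over WT with its standard error on the vertical axis, for the 7 uptake and *Fgf15* genes (orange, no test result shown) and for other pathway genes tested, in 6 groups (black: adjusted p under 0.05 by edgeR, grey: not). *Fabp6*, *Slc10a2* and *Fgf15* lie above 8, and no other pathway gene exceeds the 4.55 of *Nos2*.

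Genes with a profile most like that of *Fabp6* were sought among the tested genes, as a description. The measure was the root mean square difference between log2 CPM values (prior count 2) centred over the same libraries, which share their depth and tissue. Over the 10 libraries the closest were *Slc25a48* (2.96), *Tmigd1* (3.18), *Saa1* (3.58), *Serpina10* (3.71) and *Hoxc8* (4.05). *Slc10a2* at 2.60 was closer than any of them, and *Fgf15* had 2.77. *Tmigd1* had 2.91 to 13.3 CPM in WT and 258 to 922 CPM in KO, and *Slc25a48* had 0.175 to 0.560 and 24.8 to 132 CPM. Reads of *Saa1* can be shared with close relatives. Over the 5 KO libraries alone, among genes with a mean of at least 10 CPM in KO, *9930012K11Rik* (0.15), *Fam83d* (0.20), *Snhg20* (0.25), *Gm47283* (0.27) and *Ermard* (0.29) came closest, before *Slc51a* (0.45), *Slc51b* (0.47), *Nr1h4* (0.60), *Slc10a2* (1.02), *Fgf15* (1.14) and *Nr0b2* (1.24). The profiles were centred but not scaled, so the measure over the 10 libraries depends largely on the size of the KO against WT change. The members were chosen by that change, so their order over both groups is not a separate result. Within KO, *Slc10a2* and *Fgf15* were further from *Fabp6* than the exporter and receptor genes.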

How the data were processed

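RNA from proximal intestine was made into libraries with a SMARTER mRNA-Seq kit and sequenced on a NovaSeq instrument. The values deposited by the authors are raw, unnormalized counts by Ensembl gene, in 1 file per library. The submitters' processing notes name FastQC 0.11.9, Trimmomatic, HISAT2 2.0.4, SAMtools 1.3.1, DESeq2 1.14.1 and the builds GRCm38 and mm10. The sources used here do not name the read counter, the annotation or the use of strand. Of 35275 gene IDs, 34490 had a symbol, and positions and exon lengths came from GENCODE M21.

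R 4.3.3 with edgeR 4.0.16 was used: TMM scaling, filterByExpr (minimum count 10, minimum total 15) and the quasi-likelihood test, with Benjamini-Hochberg adjustment over 15610 genes and a threshold of 0.05. CPM used the total count times the TMM factor. The p-values set the KO against WT difference against the spread between these libraries. Alternatives were RLE, library size, epithelial scaling, no filter, DESeq2 1.42.0, a replicate block, log2 CPM differences with prior counts of 2 and 0.5, and leaving out each library.

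The members and lists were chosen with earlier results of these data known. All pathway genes, at most 3 of a marker list by mean CPM, markers at 0 and the 5 genes nearest to *Fabp6* by each measure could be named by rule. A gene of the transcription factor list is counted there and not reported here by name. Outside that rule, the listed markers *Pyy*, *Nts*, *Epcam*, *Cdh1* and *Sct* were named, and *Fabp2*, *Pcyt1a*, *Rasl12* and the motifs were added, after values or sequences were seen. The heat map shows both intestinal marker lists whole, and overlapping genes were named by position. Both count tests were tested on simulated data. The first run missed a recovery limit set beforehand, and the limit was then reset without a change to the tests. Large changes were recovered, and smaller ones were missed part of the time.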

Additional observations from a re-analysis of the deposited data

Results flagged for a closer look

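Of 98 groups of 5 libraries of the uptake and pathway genes that were tested for a library far from the others, 6 had one by Dixon's test, where chance flags about 1 in 20. *Slc51b* had 19.4 CPM in WT replicate 1, below the 22.9 to 23.9 CPM of the other WT libraries. *Gata4* had 59.3 CPM in KO replicate 1, above the 0.571 to 13.8 CPM of the other KO libraries, and *Car12* had 47.3 CPM in the same library, below their 79.8 to 90.7 CPM. *Nr1i2* had 168.5 CPM in WT replicate 2 and 114 to 129.6 CPM in the other WT libraries. *Fgfr4* had 6.48 CPM in WT replicate 4 against 3.82 to 4.42 CPM. *Nos2* had 16.0 CPM in WT replicate 5 against 1.57 to 5.50 CPM.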

How the results depend on the processing

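The log2 fold changes of the 7 uptake and *Fgf15* genes kept their sign and moved by less than 1 SD under each alternative. Without 1 library they ranged from 12.48 to 13.28 for *Fabp6*, 8.20 to 8.60 for *Slc10a2*, 7.72 to 8.86 for *Fgf15*, 1.95 to 2.18 for *Slc51a*, 1.86 to 2.15 for *Nr1h4*, 1.49 to 1.85 for *Slc51b* and 0.84 to 1.86 for *Nr0b2*. Over all genes, 2491 were called higher and 2169 lower. The counts were 859 and 4654 with epithelial scaling, which moved the median log2 fold change from 0.03 to -0.26, and 3608 and 1589 with library size only, where the share of higher calls was 69.4% in place of 53.5%. Leaving out 1 library gave 1634 (without WT replicate 2) to 2944 higher and 1573 to 2563 lower genes. The pathway lists had 7 to 12 higher and 14 to 19 lower genes under all alternatives.

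With a replicate block the log2 fold change was 12.86 for *Fabp6*, 8.43 for *Slc10a2*, 8.13 for *Fgf15*, 2.06 for *Slc51a*, 1.97 for *Nr1h4*, 1.61 for *Slc51b* and 1.20 for *Nr0b2*, and 1950 genes were higher and 1898 lower. Same-numbered libraries correlated between -0.167 and 0.177 in their deviations, so the number was not taken to pair them. The block lost the calls of *Nr1i2* (adjusted p = 0.0549) and *Amacr* (0.0522) and added those of *Abcc3* (0.0233), *Cyp39a1* (0.0428) and *Lct* (log2 fold change -8.38, adjusted p = 0.0384) by edgeR. *Epcam* lost its call with epithelial scaling, without the filter and without 6 of the libraries in turn, and *Sct* with epithelial scaling and without WT replicates 1 or 2. Among genes called by the main fit, epithelial scaling moved the log2 fold change by over 1.5 times for *Slco2b1* (-0.83), *Vdr* (-0.77), *Nr1i2* (-0.73), *Malrd1* (0.47), *Cdx2* (0.49), *Krt8* (0.47), *Epcam* (0.21) and *Sptlc2* (0.18), the last with an adjusted p of 0.339. *Krt8* and *Epcam* are themselves part of that scale. Genes without a call moved too, among them *Nr3c1*, which went from -0.26 to -0.56 and was called lower (adjusted p = 0.0073 by edgeR). Over all pathway and marker genes, 1134 results kept the direction and the side of the threshold, 28 added a call and 21 took one away. The other 33 turned the direction, in genes without a call by either fit. With epithelial scaling these were *Abcc4* (-0.035), *Rxrb* (-0.21), *Hsd3b7* (-0.17), *Smpd3* (-0.28), *Hnf4a* (-0.046), *Rara* (-0.27), *Maf* (-0.19), *Amn* (-0.11) and *Cdh1* (-0.11), and with library size only *Rxra* (0.051), *Jun* (0.10), *Cubn* (0.032) and *Ptprc* (0.022). *Smpd3* was at -0.0095 with the block, and *Rara* at -0.0017 with RLE, -0.014 without the filter and -0.0068 by DESeq2. Without 1 library, *Smpd3* ranged from -0.062 to 0.19, *Rara* from -0.045 to 0.054, *Maf* from -0.022 to 0.22, *Jun* from -0.084 to 0.019, *Cubn* from -0.35 to 0.20, *Amn* from -0.13 to 0.30 and *Ptprc* from -0.29 to 0.020. The cause was not tested. At 0 to 8 counts per WT library, a smaller difference in *Fgf15* within WT was not detectable.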
